A study of Homo sapiens with 4 samples.

Results

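The basal miRNA content of U2OS cells was read from the 2 control samples of a study of 4 samples, each group having 1 sample. U2OS is a human osteosarcoma line with mesenchymal, bone-derived character. The first control, called shNS, was RNA from puromycin-selected cells (2 µg/ml) that carried a lentiviral control hairpin. The second, called untreated, was RNA from cells that received no drug, and no infection is given for them. Medium contained 5% serum for every sample. The other samples were puromycin-selected cells infected with a hairpin against the helicase DDX1 (shDDX1) and cells given neocarzinostatin, a DNA-cutting drug, at 500 ng/ml for 6 h (NCS). They enter only where named. Of the controls, only shNS has infection and puromycin given, and each control was its own culture on its own plates. Whether the plates were run together is not given. The parts of these in any difference between the controls cannot be told apart.

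Mature miRNAs were measured by quantitative PCR with SYBR Green on 2 ready-made plates of assays, panel I and panel II. The value of a well is its Ct, the cycle at which fluorescence crossed a threshold, so a lower Ct means more template. All wells with a human miRNA assay were taken, 740 of 768, of which 365 were on panel II and the others on panel I. They held 737 different assays, since 3 assays (miR-423-5p, miR-191 and miR-103) stood on both panels. Because assays differ in efficiency and plates in threshold, wells were ranked by Ct within each panel and sample. Ranks are given as percentiles, with 0 for the earliest Ct and 100 for the latest, and wells at Ct 35 or later, or with no Ct (undetermined), shared the last rank. With 1 sample per group there was no test, and wells of a plate are not replicates.

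The untreated plates read later as a whole. The median Ct was 26.09 in shNS and 32.27 in untreated on panel I, and 28.71 and 32.44 on panel II. The 3 calibrator wells of each plate read a template added by the manufacturer rather than a cell RNA. They averaged 17.8 in shNS and 21.5 in untreated on panel I, and 16.7 and 18.1 on panel II. The small nuclear RNA U6 read at 15.72 and 24.62 on panel I, and the UniSp6 control assay at 15.509 and 23.997. The small RNAs SNORD38B and SNORD49A read at 16.94 and 20.33 and at 16.89 and 20.70 there. The control assays were thus not later by one common amount. Of 9 water wells, 6 gave a Ct in shNS, the earliest being 27.76 on panel I and 26.60 on panel II, and 0 gave one in untreated. A Ct later than these in shNS cannot be told apart from water. The calibrator wells, whose template was not from the cells, also read later in untreated. Plate run, fewer cells, less RNA per cell and less RNA loaded cannot be told apart in these values, and their parts were not tested.

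A miRNA is cut from a hairpin precursor by Drosha and Dicer, and one arm of the duplex, the guide, is kept by an Argonaute protein while the other, the passenger or star arm, is usually degraded. The guide pairs with target mRNAs mainly through its seed, bases 2 to 8 from the 5′ end, so miRNAs with a shared seed form a family with overlapping targets. miR-21, miR-221 and miR-222 are known to be abundant in many tumour lines, and the miR-200 family marks epithelium.

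Of the panel I assays that read early in both controls, 23 had a sequence, with 16 distinct seeds among them. The mature sequences printed here are those of the assays described first, together with the relatives miR-222 and miR-17, which ranked later, because several relatives differ by a single base. They are from RefSeq (GRCh38.p14), 5′ to 3′, with the seed in capitals.
miR-221: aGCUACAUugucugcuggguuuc
miR-222: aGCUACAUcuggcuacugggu
miR-24: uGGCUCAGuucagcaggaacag
miR-23a: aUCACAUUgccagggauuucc
miR-27a: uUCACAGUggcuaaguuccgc
miR-27b: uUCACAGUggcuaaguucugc
miR-103: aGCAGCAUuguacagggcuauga
miR-107: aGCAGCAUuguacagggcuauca
miR-21: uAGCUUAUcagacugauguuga
miR-19b: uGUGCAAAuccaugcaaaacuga
miR-93: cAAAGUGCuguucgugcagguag
miR-20a: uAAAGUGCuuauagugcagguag
miR-106a: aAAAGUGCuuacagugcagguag
miR-17: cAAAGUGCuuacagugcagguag
miR-15a: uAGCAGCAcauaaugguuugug
miR-15b: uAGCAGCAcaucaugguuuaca
miR-125a-5p: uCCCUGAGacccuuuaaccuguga
miR-125b: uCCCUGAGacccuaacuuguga
miR-221 and miR-222 lie beside each other on the minus strand, at chrX:45746180-45746202 and chrX:45747036-45747056. miR-23a and miR-27a are also neighbours, at chr19:13836595-13836615 and chr19:13836447-13836467 on the minus strand. miR-21 is at chr17:59841273-59841294 on the plus strand. Of 737 assays, 503 were matched to a RefSeq mature sequence by name.

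An assay was called abundant where it was in the earliest 10% of its panel in both controls, which was so for 26 wells on panel I (6.93%) and 23 of 365 on panel II (6.3%). The limit on panel I was Ct 20.40 in shNS, with miR-125b just inside at 20.40 and miR-222 just outside at 20.44. In untreated it was Ct 24.88, with miR-423-3p just inside at 24.88 and miR-151-3p just outside at 24.94. On panel II the limit lay between miR-1913 at 24.57 and miR-214* at 24.63 in shNS, and between miR-25* at 28.36 and miR-941 at 28.37 in untreated. Both panel II limits were later than those of panel I, so abundance here is relative to the other assays of a panel.

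miR-221, which represses the cell cycle inhibitor CDKN1B, had the lowest mean rank on panel I, with Ct 17.75 in shNS and 21.30 in untreated, where it was the earliest of all panel I wells. Its cluster partner miR-222 read at 20.44 and 23.75. Both ranked within the first 10% in untreated, while in shNS miR-222 sat on the limit. miR-21, which represses PDCD4, read at 16.65 in shNS, the third earliest well, and at 23.41 in untreated, the 17th. It was abundant in both controls, but its Ct differed by more than that of the other 9 panel I wells with the lowest mean ranks.

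The miR-23/27/24 clusters held 4 abundant members of 5. miR-24 read at 18.30 in shNS and 21.77 in untreated, miR-23a at 18.34 and 22.27, and miR-27a at 19.23 and 22.15. These 3 can come from one cluster on chromosome 19. miR-24 was the earliest of them in both controls, while miR-23a and miR-27a changed places. miR-27b, from the second copy of the cluster, read at 19.78 and 22.76. miR-23b, at 20.31 and 25.40, was the member outside the abundant group.

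The miR-17 family and its clusters, whose members repress CDKN1A and E2F1, held 5 abundant members of 13. miR-19b read at 19.31 in shNS and 21.72 in untreated, miR-93 at 19.25 and 22.29, and miR-106a at 19.38 and 21.80. miR-20a read at 19.25 and 23.64, and miR-92a at 19.54 and 22.85. miR-17 itself read later than these 5, at 23.86 and 28.32, although its sequence differs from that of miR-106a by 1 base of 23. Assays for such close sequences can read each other's template, and how far they do so was not tested. At the other end of this list, miR-20b read at 33.95 and 38.77 and miR-363 at 32.18 and undetermined.

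Further abundant wells on panel I were miR-103 at 18.83 in shNS and 21.71 in untreated and miR-107 at 19.92 and 24.49, both encoded in introns of pantothenate kinase genes. miR-125a-5p read at 19.18 and 22.55, and miR-125b at 20.40 and 24.25. miR-15a and miR-15b, of the family that represses BCL2 and cyclin D1, read at 19.97 and 22.91 and at 20.24 and 23.38. The let-7 family contributed let-7g at 20.30 and 23.58 and let-7e at 19.92 and 24.55. miR-720, at 17.59 and 21.80, had rank 5 in both controls. It is now regarded as a tRNA fragment rather than a hairpin miRNA. The other 6 were miR-30c, miR-320a, miR-99b, miR-502-5p, miR-193b and miR-151-5p. Over all 26 wells, Ct reached 20.40 in shNS and 24.55 in untreated.

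On panel II, 8 of the 23 abundant wells carried star names, close to the share of such names on the panel, 126 of 365. miR-188-3p read at 7.14 in shNS and 12.69 in untreated, and miR-603 at 10.29 and 16.09. Both were also the earliest wells of panel II in shDDX1 and NCS, at 7.64 and 12.10 for miR-188-3p and at 7.33 and 16.19 for miR-603. In the controls both wells came before U6 on panel II, at 14.46 and 23.45. They also came before the calibrator wells of that panel, at 16.7 and 18.1. What readings so early measure was not tested. miR-188-5p, from the hairpin of miR-188-3p, read at 25.52 and 32.22. The next wells were close to the panel I values of abundant miRNAs. miR-320b read at 19.18 and 21.44, miR-103 at 19.04 and 21.68, miR-455-3p, from an intron of COL27A1, at 21.71 and 24.14, and miR-551a at 22.14 and 23.44. Of star arms, miR-29a* read at 23.50 and 25.85, miR-17* at 23.34 and 26.25 and miR-106b* at 23.77 and 25.66. In NCS, miR-17* read at 26.95, percentile 5.07, and in shDDX1 at 32.45.

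**Figure D1:**
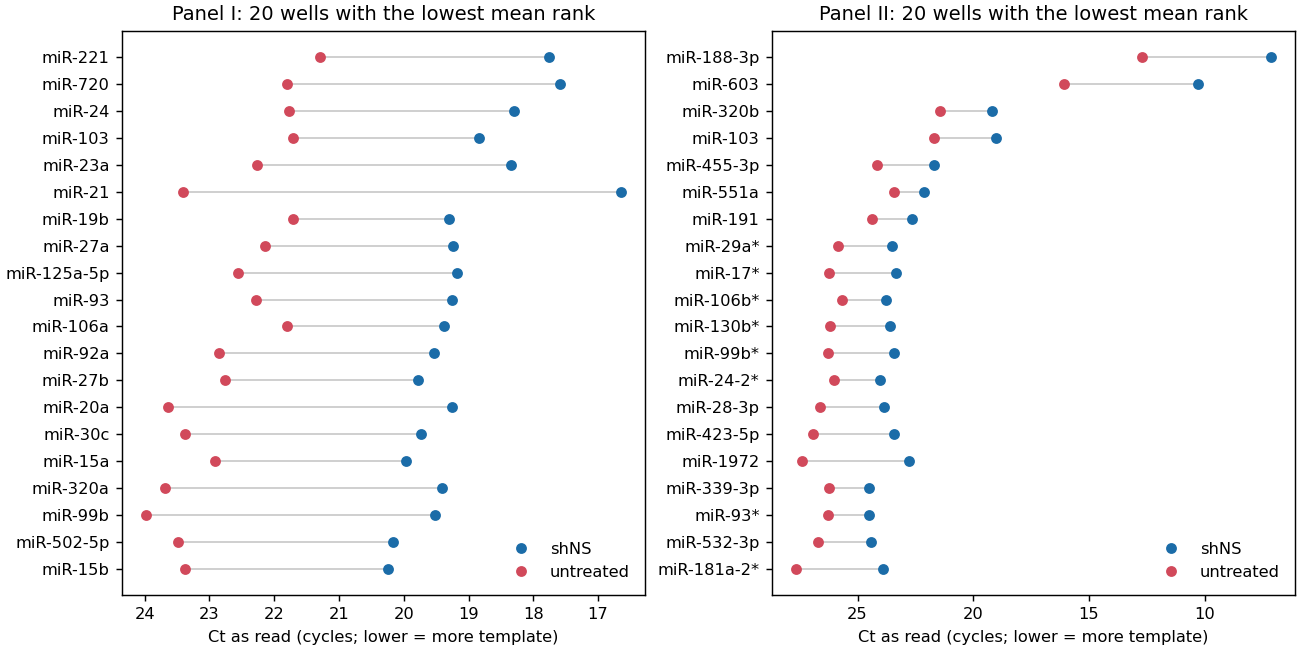
Ct as read (cycles, axis reversed so that more template is to the right) of the 20 wells with the lowest mean percentile rank over the controls on each panel, blue for shNS and red for untreated, 1 sample each and a grey line joining them. Every point of untreated lies to the left of its shNS point, and miR-21 has the longest line on panel I, from 16.65 to 23.41.

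The middle of the order lay earlier than water in shNS on panel I and later than water on panel II. Closest to the median in both controls on panel I were miR-518c* at 25.75 and 32.40, miR-376c at 26.45 and 31.96, miR-887 at 26.61 and 32.03, and miR-142-3p at 25.73 and 31.85. miR-142-3p is a miRNA of blood cells and miR-376c belongs to an imprinted cluster on chromosome 14. On panel II, miR-362-3p read at 28.71 and 32.22, miR-1236 at 28.55 and 32.47 and miR-496 at 28.74 and 32.20. All 3 read later than the earliest water well of panel II in shNS, so those readings lay within the range of water wells.

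In shNS, 732 of 740 wells gave a Ct under 35, and in untreated 521. The wells not detected in untreated (29.6%) comprised 119 on panel I (31.7%) and 100 on panel II (27.4%), and 98 of them were undetermined. In shNS, 8 wells (1.08%) were not detected, and these were not detected in untreated either. They were miR-557 at 36.41 in shNS, miR-371-3p at 37.90, miR-802 undetermined, miR-220a at 36.35, miR-124* at 36.54, miR-938 at 35.29 and miR-647 at 35.99, each undetermined in untreated, and miR-1264 at 36.11 and 35.90. miR-371-3p read at 28.31 and miR-802 at 29.05 in shDDX1, both later than the earliest water well of that plate, at 27.29.

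Read against water, fewer wells in shNS stood clear of background. On panel I, 251 wells came earlier than the earliest water well, and on panel II 88 of 365. Combining both controls, 299 wells were earlier than water in shNS and under Ct 35 in untreated. By the same measures 179 wells were later than water in shNS and not detected in untreated, 84 on panel I and 95 on panel II. Another 40 were earlier than water in shNS but not detected in untreated, 35 of them on panel I. The rest were detected in untreated but later than water in shNS.

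The order of wells was alike in both controls, with a Spearman correlation of 0.780 over the wells of panel I and 0.830 over the 365 of panel II. These wells share plates and assay efficiencies, which also order them. Between shNS and shDDX1, which share infection and selection, the same measure was 0.940 and 0.928, and between untreated and NCS 0.863 and 0.926. Of the 94 wells in the first quartile of panel I in shNS, 72 were in the first quartile in untreated. On panel II this was so for 66 of 91. Fewer wells stayed in place further down. In the second quartile these were 45 of 93 on panel I and 42 of 91 on panel II, and in the third 28 of 94 and 41 of 92. The last quartile is not compared, since the wells not detected in untreated share one rank there.

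**Figure D2:**
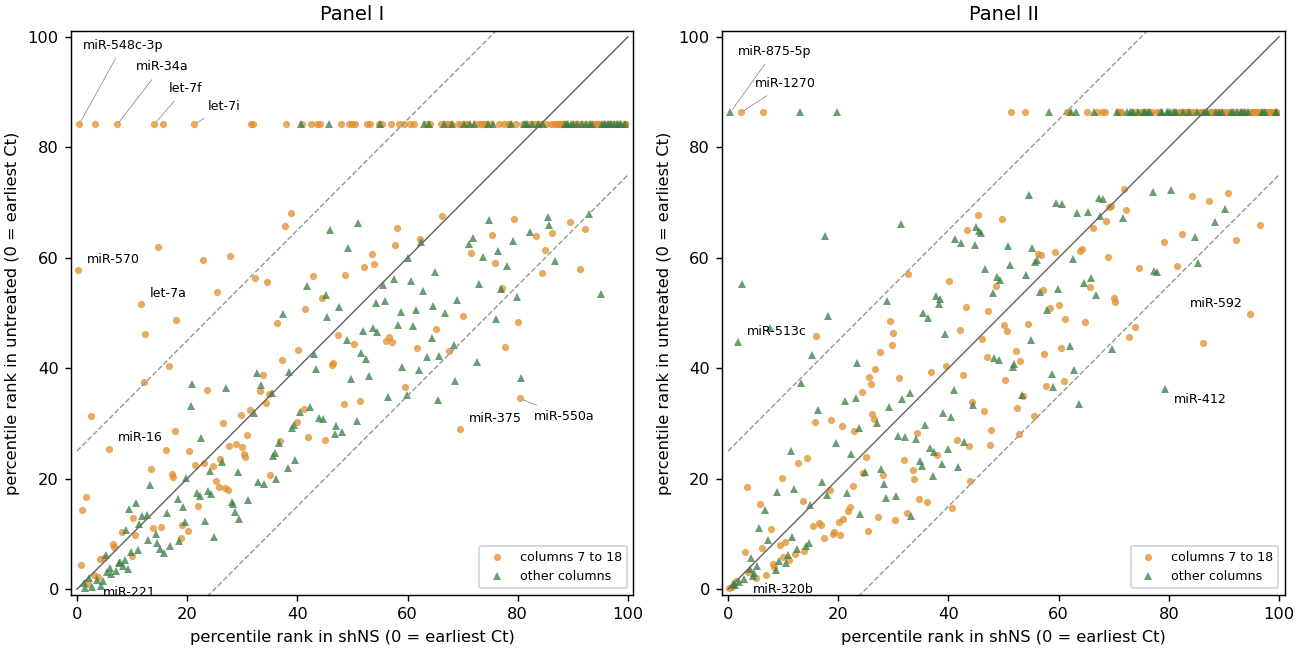
Percentile rank within the panel in shNS (x axis) against untreated (y axis), 1 point per well. Orange circles are plate columns 7 to 18, green triangles the other columns, the solid line is equal rank and the dashed lines a shift of 25 points. The row of points at the top of each plot is the wells not detected in untreated, and on panel I the points far above the upper dashed line are nearly all orange.

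A shift of at least 25 percentile points was found for 81 of 740 wells (10.9%). On panel I, 38 wells ranked later in untreated (10.1%) and 16 earlier (4.27%), and on panel II, 16 later (4.38%) and 11 earlier (3.01%). Wells ranking later in untreated included members of well known families. miR-34a, a p53 target that restrains the cell cycle, read at 20.0006 in shNS and 35.76 in untreated, and at 22.24 in shDDX1 and 23.63 in NCS. let-7f read at 21.62, 35.59, 24.50 and 24.92 in the same order of samples, and let-7i at 22.78, undetermined, 24.59 and 26.44. Untreated was the sample that stood apart for these 3 miRNAs, while the other 3 samples ranked them within the first 30%.

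The let-7 family, which represses RAS and HMGA2, was split between the controls although its members are nearly the same sequence, as the next lines show.
let-7a: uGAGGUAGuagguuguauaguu
let-7f: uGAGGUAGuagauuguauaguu
let-7e: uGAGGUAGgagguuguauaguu
let-7g: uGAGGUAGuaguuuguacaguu
let-7i: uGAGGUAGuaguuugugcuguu
let-7a and let-7f, which differ at 1 base of 22, both ranked within the first 15% in shNS and at percentiles 51.6 and 84.1 in untreated, let-7a reading at 21.18 and 32.48. let-7e, also 1 base from let-7a, stood at percentiles 6.53 and 8.13. let-7b read at 21.75 and 24.46, let-7c at 24.17 and 29.42, and let-7d at 23.48 and 28.45, none of them shifted by 25 points. Of 9 family members including miR-98, 3 shifted later and 0 earlier.

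Other wells with a large later rank in untreated on panel I were miR-548c-3p, at 14.94 and undetermined, miR-572 at 19.20 and 39.83, miR-329 at 21.81 and 37.25, miR-30c-2* at 24.12 and 39.28, and miR-570 at 8.45 and 33.38. miR-570 read at 23.69 in shDDX1 and 15.31 in NCS, and miR-548c-3p at 31.79 and 27.99. Across the 38 panel I wells, shDDX1 was within 25 points of shNS for 33 and NCS for 28. Within 25 points of untreated, shDDX1 lay for 12 and NCS for 16. miR-128 and miR-16, abundant in shNS, read at 18.54 and 29.37 and at 19.70 and 28.42, shifts of 28.8 and 19.7 points.

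The second arm of the same hairpin gives a reading of the hairpin in another well, and this comparison was chosen after the values were seen. Of the 38 wells, 21 had such a partner, giving 24 partner wells. For 23 of these 24 the partner moved by less than 25 points, beside a background of 10.9% of all wells that moved by 25 points or more, so this count lies near the background. miR-34a* read at 24.75 in shNS and 27.35 in untreated, percentiles 10.8 and 6.16 on panel II. let-7f-2* read at 25.97 and 28.63, let-7a* at 26.56 and 28.93, and miR-30d* at 26.45 and 30.37 while miR-30d read at 24.76 and 39.73. miR-339-3p read at 24.51 and 26.25, where miR-339-5p read at 23.31 and 32.78. The exception was miR-615-5p, at 28.77 and 35.21, which shifted later by 34.9 points together with miR-615-3p, at 25.31 and 36.88.

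On panel II, the wells ranking later in untreated were split from those above by what the other samples did. miR-1270 read at 22.58 in shNS and 22.30 in shDDX1 but at 37.77 in untreated and 36.26 in NCS. miR-1255b read at 23.98, 23.77, 38.25 and 36.33 in that order, and miR-1265 at 22.65, 21.60, 33.18 and 33.95. Of the 16 wells, shDDX1 was within 25 points of shNS for 14 and of untreated for 1. NCS was within 25 points of untreated for 15 and of shNS for 6. Over all panel II wells the rank correlation was 0.928 between shNS and shDDX1 and 0.926 between untreated and NCS. Counts within 25 points were not made over all wells, so those of the 16 are not read as particular to them. miR-875-5p, at 7.61 in shNS, was undetermined in untreated and read at 27.40 in shDDX1 and 33.85 in NCS. miR-513c, at 21.97 in shNS, read at 32.05, 36.33 and 32.89 in untreated, shDDX1 and NCS.

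Wells ranking earlier in untreated included several that read late in shNS. On panel I, miR-550a read at 29.10 in shNS and 29.65 in untreated, miR-582-5p at 29.12 and 30.50, miR-372 at 31.53 and 32.77, and miR-375 at 27.91 and 28.95. miR-375, known from pancreatic islets, moved from percentile 69.5 to 28.9 while its Ct changed from 27.91 to 28.95. On panel II, miR-592 read at 33.75 and 32.44, miR-412 at 31.27 and 31.44 and miR-512-3p at 31.95 and 32.03. All 7 of these wells were later than the earliest water well of their panel in shNS. In NCS, all 16 panel I wells and 10 of the 11 on panel II were within 25 points of untreated. Within 25 points of shNS were 11 and 2 of these wells. In shDDX1, 16 and 10 were within 25 points of shNS, and 10 and 7 of untreated. A well can lie within 25 points of both controls, and such counts were not made over all wells.

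Plate position moved with the shifts on panel I. In columns 7 to 18, 35 of 192 wells ranked later in untreated (18.2%), and in the other columns 3 wells did (1.64%). By rows, 35 of the 259 wells in rows A to K ranked later and 5 earlier, against 3 and 11 of the 116 in rows L to P. Wells not detected in untreated made up 40.6% of the middle columns and 22.4% of the outer ones. The rank correlation of the controls was 0.687 over the 192 middle wells and 0.912 over the outer ones. miR-34a, let-7f, let-7i, let-7a, miR-572, miR-329 and miR-570 all sat in the middle columns. On panel II the split ran the other way, with 5 of 189 middle wells (2.65%) and 11 of 176 outer wells (6.25%) ranking later. There 5 of the 16 wells lay in column 2, which holds 11 miRNA wells. The part of plate position in any single shift was not tested.

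**Figure D3:**
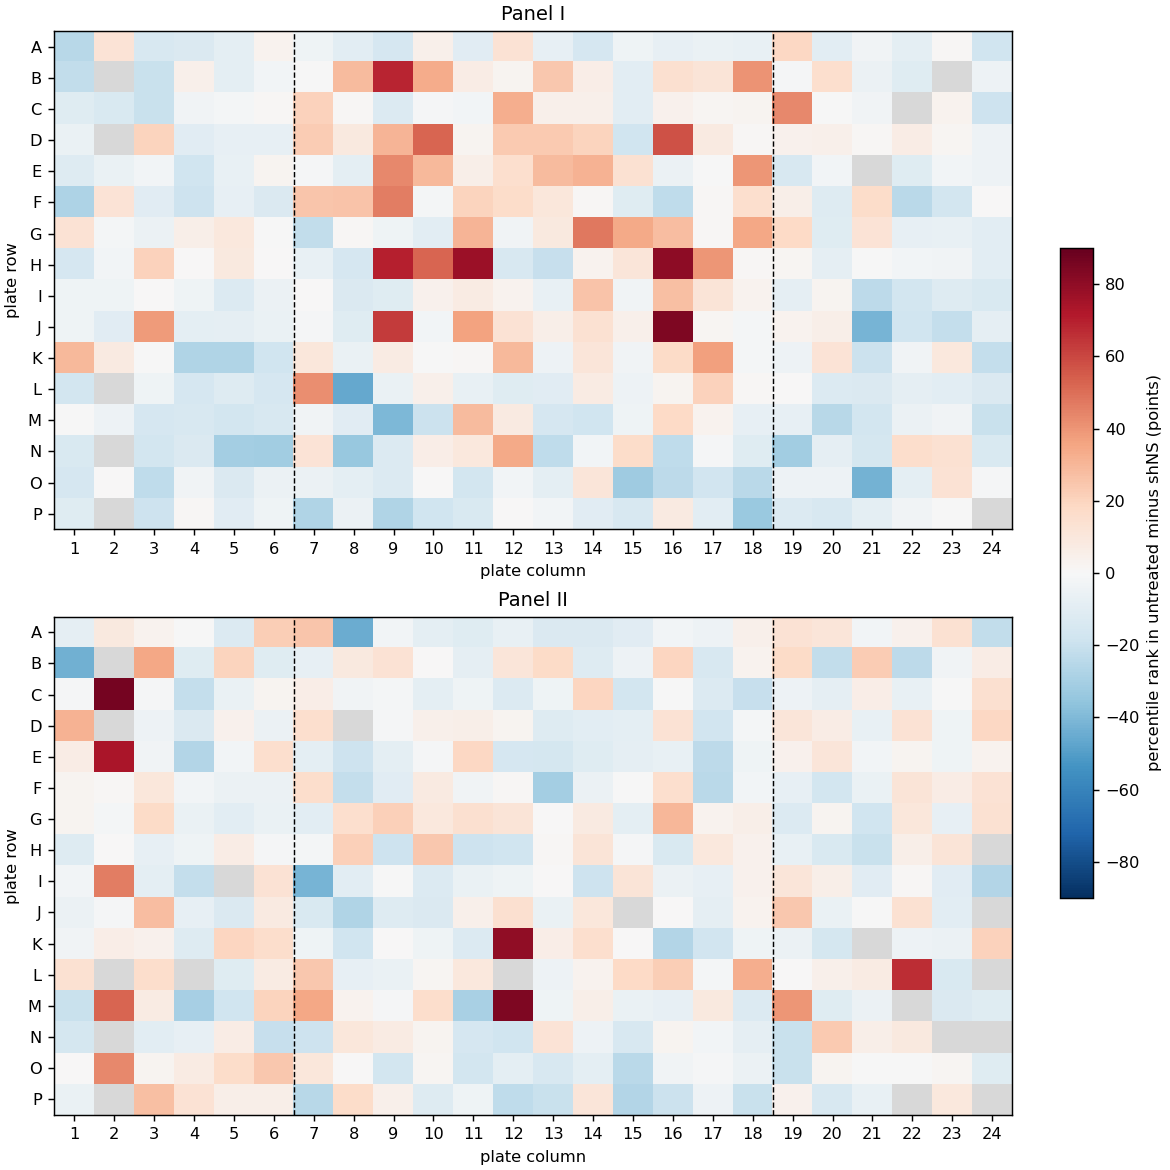
Change of percentile rank from shNS to untreated for each miRNA well, drawn at its plate row and column, red for later and blue for earlier in untreated, grey where a well holds no miRNA assay. Dashed lines mark columns 7 to 18; on panel I, 35 of the 38 wells that ranked at least 25 points later lie between them, and on panel II 5 of 16.

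Wells abundant in only one control showed the same split. On panel I, 11 wells were in the first 10% in shNS alone, of which 9 were in the middle columns, 5 were shifted by 25 points and 3 were not detected in untreated (miR-548c-3p, miR-572 and miR-34a). A further 11 were in the first 10% in untreated alone, such as miR-222, miR-197 at 21.84 and 24.21 and let-7b, and 0 of them had shifted by 25 points. On panel II, 13 wells were abundant in shNS alone, 6 of them shifted and 1 a star arm, and 13 in untreated alone, 0 of them shifted and 8 star arms.

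Lists of miRNAs by known expression were set against the label of the line, using assays without an asterisk. No miRNA is specific to osteosarcoma, so the check was between lists. Broadly expressed families had a median percentile of 14.3 in shNS and 16.7 in untreated over 48 assays, with 42 detected in untreated and 14 abundant. The mesenchymal lists had 16.9 and 15.1 over 19 assays, with 19 detected and 5 abundant. These 5 were miR-21, miR-221, miR-125a-5p, miR-125b and miR-99b. The other mesenchymal lists ranked later than this pooled median and held 0 abundant assays each. The list of miR-199 and miR-214 had medians of 28.4 in shNS and 40.8 in untreated. That of miR-143 and miR-145 had 35.9 and 29.5, and that of the HOX-linked miR-10 and miR-196 had 37.7 and 34.3. The pooled median thus does not describe each mesenchymal list. The lists of other tissues had 64.9 and 59.6 over 105 assays, with 67 detected and 0 abundant. All 585 assays without an asterisk had medians of 51.3 and 51.1, with 407 detected in untreated (69.6%) and 41 abundant. These lists are descriptions and were drawn up with earlier results of these data known.

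Within the mesenchymal lists, miR-99, miR-100 and miR-125 stood at medians of 10.7 and 7.33 over 6 assays. miR-100 read at 22.05 in shNS and 24.54 in untreated, and miR-99a, the latest member, at 24.30 and 27.38. miR-199a-5p read at 21.38 and 31.87, and miR-214, from the same transcript, at 22.89 and 26.48. miR-143 and miR-145, of smooth muscle and fibroblasts, read at 24.33 and 30.14 and at 24.77 and 27.76. Of the HOX-linked miRNAs, miR-196b read at 23.65 and 26.19, miR-196a at 22.02 and 30.76, miR-10a at 25.69 and 28.83 and miR-10b at 27.62 and 32.46.

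Of all miRNA wells, 401 of 740 were later than the earliest water well of their panel in shNS, 277 of them among the 365 wells of panel II. In the muscle list all 8 assays were later than water, and 2 of 8 were detected in untreated, miR-133a at 34.87 and miR-499-3p at 34.98. miR-1 read at 27.80 in shNS and miR-206 at 27.84, and both were undetermined in untreated. In the list of the X-linked testis cluster 9 of 10 were later than water and 2 of 10 were detected in untreated, and in the pluripotent list 7 of 10 and 2 of 10. Of the latter, miR-302b read at 25.95 in shNS, earlier than water, and was undetermined in untreated. The liver miRNA miR-122 read at 28.56 and 32.80.

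The epithelial list was late in rank, with medians of 65.7 and 57.5. All 7 members were detected in untreated, but some only just under Ct 35. miR-200a read at 27.69 in shNS and 34.88 in untreated, and miR-200b at 27.10 and 34.34. miR-200c read at 27.86 and 30.42, miR-141 at 27.63 and 33.34 and miR-205 at 27.66 and 31.46. miR-429, the latest by mean rank, read at 30.82 and 34.67. These lay within 1 cycle of the earliest water well in shNS apart from miR-429. Of blood miRNAs, miR-451 of red cells read at 26.55 and 30.53, miR-223 of myeloid cells at 28.44 and 32.22, and miR-144 at 27.52 and 39.69. Neuronal miRNAs were spread widely, from miR-153 at 23.08 and 25.94 and miR-9 at 22.59 and 27.45 to miR-124 at 27.53 and 31.32 and miR-219-2-3p at 31.50 and 37.21. The placental cluster on chromosome 19 had 32 of 42 members detected in untreated, 30 of 42 later than water in shNS and 0 abundant. miR-182, of sensory cells, read at 23.62 and 26.67, and miR-211, of pigment cells, at 30.56 and undetermined.

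**Figure D4:**
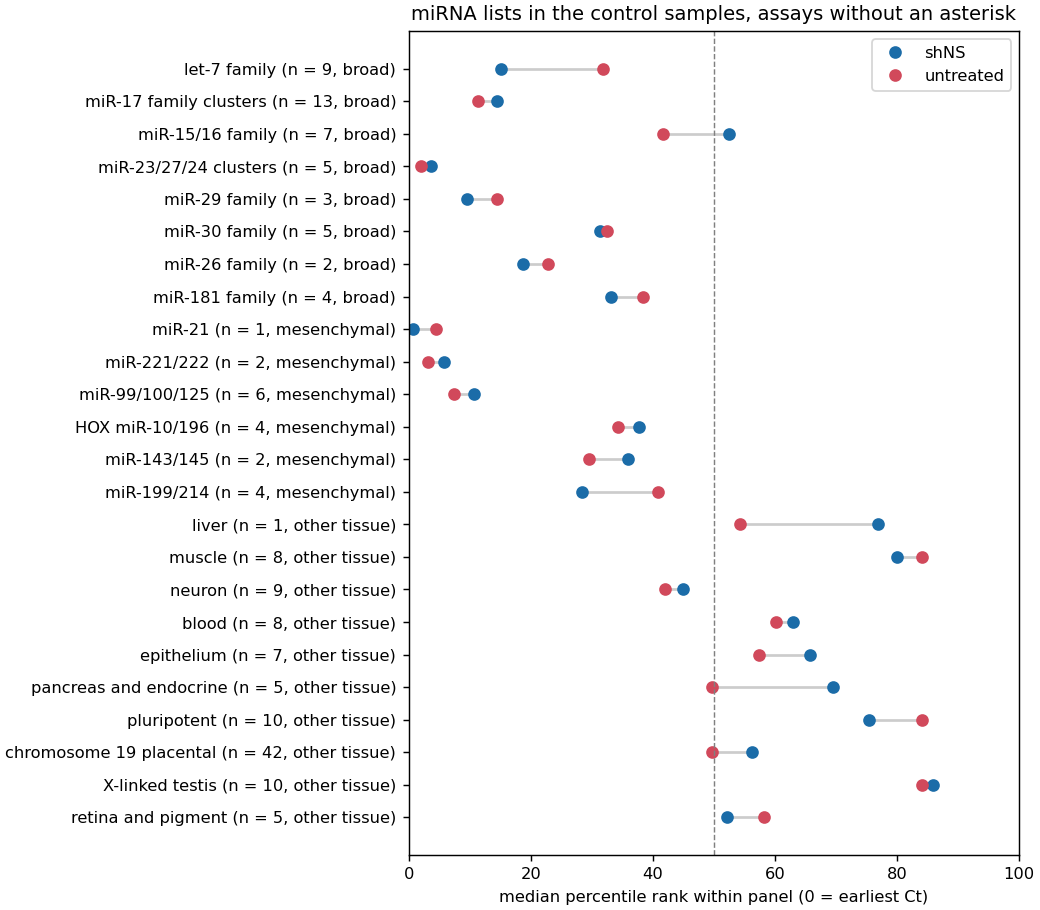
Median percentile rank within panel (x axis, 0 for the earliest Ct) of 24 miRNA lists in shNS (blue) and untreated (red), with the number of assays without an asterisk in brackets; the dashed line is the middle of the order. The broad and mesenchymal lists lie to the left, with miR-15/16 at 52.4 in shNS the exception, and muscle, pluripotent and X-linked testis lists lie at 75 or later in both controls.

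Guide and star arms were compared in 151 pairs named without and with an asterisk, 116 of them with the guide on panel I and the star on panel II. Each plate was set to its calibrator wells for this. The guide then read earlier in 134 pairs in shNS and 118 in untreated, the star in 17 (11.3%) and 20 (13.2%), and neither arm was detected in 13 pairs in untreated. Of the 20 star-first pairs in untreated, 5 had both arms detected, and in the others the guide was not detected. The median lag of the star was 5.05 cycles in shNS and 5.51 in untreated where both arms were detected. In both controls the guide came first in 112 pairs and the star in 5, and 21 pairs had opposite order.

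The size of the lag rests on how the panels are aligned. The calibrators put panel I later than panel II by 1.12 cycles in shNS and 3.45 in untreated, while 7 assays present on both panels differed on average by -0.14 and 0.72. In untreated the range of these was 0.02 for miR-103 to 2.57 for miR-423-5p, which read at 29.51 and 26.94. With Ct as read, the star came first in 20 pairs in shNS and 38 in untreated, with medians of 4.37 and 2.77. Aligned on the shared assays, an alternative chosen after the data were seen, the counts were 21 and 32 and the medians 4.23 and 3.01. The 35 pairs with both arms on one panel need no alignment. There the guide came first in 25 in shNS and 22 in untreated, with medians of 2.22 and 2.38. The star came first in 10 of the 35 in shNS and in 5 in untreated, where neither arm was detected in 8. The guide came first in both controls under all 3 alignments in 97 of 151 pairs.

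Among pairs with both arms detected in both controls, the largest lag in shNS was that of miR-106a. miR-106a* came 12.1 cycles after miR-106a in shNS and 15.3 in untreated, reading at 30.37 and 33.62. The miR-106a sequence is 1 base of 23 from that of miR-17, and how far its well reads miR-17 template was not tested. miR-221* came 12.01 and 13.97 cycles after miR-221, and miR-23a* 10.4 and 13.8 after miR-23a. miR-24-1* lagged miR-24 by 9.99 and 13.2 cycles. All these lags are with calibrators. With Ct as read they were 10.9 and 10.5 cycles for miR-221 and 9.30 and 10.3 for miR-23a. How a lag differed between the controls thus depended on the alignment. For miR-21, whose arms share panel I, miR-21* read at 21.48 and 27.72, a lag of 4.84 and 4.31 cycles. With calibrators miR-222* lagged miR-222 by 7.14 and 9.50 cycles, so the arms of both miR-221 and miR-222 were far apart.

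The star came first in both controls under all 3 alignments in 5 pairs. For let-7d the arms shared panel I, let-7d* reading at 23.29 in shNS and 27.39 in untreated against 23.48 and 28.45 for let-7d.
let-7d: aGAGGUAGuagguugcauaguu
let-7d*: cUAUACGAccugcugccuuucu
The arms have different seeds. In the remaining 4 pairs (miR-1911, miR-411, miR-449b and miR-616) the guide was not detected in untreated. miR-411* read at 26.42 and 29.62 against 29.37 and 35.62 for miR-411. miR-17* read 0.59 cycles after miR-17 in shNS and 1.39 in untreated with the calibrators. As read it was at -0.52 and -2.07 cycles from miR-17, and aligned on the shared assays at -0.66 and -1.34. The order of this pair thus turned with the alignment and is not settled.

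**Figure D5:**
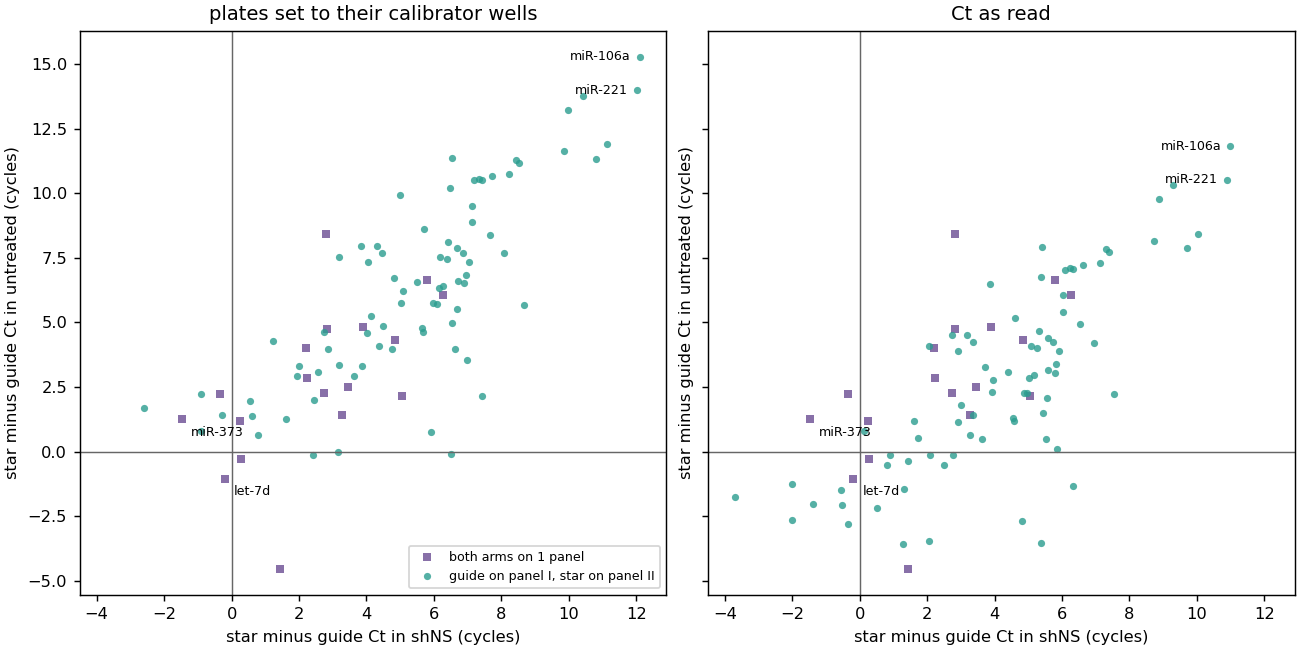
Star minus guide Ct in shNS (x axis) and untreated (y axis), in cycles, for guide and star pairs with both arms detected in both controls, with plates set to their calibrator wells on the left and Ct as read on the right. Purple squares have both arms on 1 panel and do not move between the plots, green circles have them on different panels and move down in untreated; miR-106a and miR-221 lie at the upper right in both.

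For 59 hairpins the arms are named 5p and 3p, with no guide implied. With calibrators the 5p arm read earlier in 38 in shNS and 27 in untreated, and 24 had 5p first in both controls and 14 had 3p first. The order in untreated turned with the alignment, since 5p came first in 23 and 3p in 26 both as read and aligned on the shared assays, with medians of -0.45 and -0.29 cycles for 3p minus 5p against 1.23 with calibrators. miR-423-3p read at 20.62 and 24.88 against 22.67 and 29.51 for miR-423-5p on the same panel. miR-342-3p read at 24.85 and 28.00 against 29.37 and 33.02 for the 5p arm. miR-455-3p also came before its 5p arm, at -2.08 cycles from it in shNS and -3.98 in untreated. miR-125a-5p came before miR-125a-3p by 6.89 and 9.22 cycles and miR-502-5p before miR-502-3p by 6.86 and 8.65. The arms of miR-140, both on panel I, changed order, the 5p reading at 22.50 and 25.75 and the 3p at 23.28 and 24.85.

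Sequence features were counted for matched assays. Argonaute is known to favour a strand with U at its 5′ end. On panel I, 14 of 23 abundant assays began with U (60.9%), against 127 of 259 on the whole panel (49.0%) and 31 of 78 not detected in untreated (39.7%). On panel II the shares were 4 of 21 and 61 of 247 (24.7%). Among guide and star pairs, the earlier arm began with U in 84 of 130 pairs in shNS (64.6%) and the later arm in 27 (20.8%). In untreated these were 73 and 27 of 118 with calibrators, and 65 and 35 with Ct as read. GC content had a median of 47.6% in abundant and 47.8% in all panel I assays, and of 54.5% and 50% on panel II. Its Spearman correlation with percentile rank was 0.03 in shNS and 0.00 in untreated over 259 panel I assays, and -0.29 and -0.21 over 247 on panel II. The sign means that GC-rich assays tended to read earlier on panel II.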

How the data were processed

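The authors deposited a table of Ct values, a shifted table and a table of folds. Per the labels' protocols, total RNA was extracted with Trizol and reverse transcribed with an Exiqon kit, and the plates were human panel I and II, V2.M. Neither instrument nor threshold is given in the sources used here. These deposited Ct values are on a cycle scale and are not normalized. The fold table was not used, and the shifted table served only as an alternative. Ranks, counts and Spearman correlations were computed with Python 3.11.15 and pandas 2.3.3, and figures with matplotlib 3.10.9. The ranking was tested on simulated data. An assay was detected under Ct 35. Bracketed assay names, spike-ins, small RNAs and water wells were left out of the ranks.

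Named were, per panel, the 10 wells with the lowest mean rank, the 8 with the largest shift each way, the 6 closest to the median, wells not detected in both controls, the 8 pairs with the largest excess of either arm, the ends of each list, assays on both panels, wells under Ct 12 and wells at the 10% limits. Members of families were named beside these. The members and the 24 lists were chosen with earlier results of these data known. Arms of names without a suffix were assigned by hand from miRBase naming. Each group had 1 sample, so no p-value was computed and no replicate spread is known.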

Additional observations from a re-analysis of the deposited data

Results flagged for a closer look

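Water wells gave a signal in one control. In shNS, 6 of 9 water wells had a Ct, the earliest at 26.6, and in untreated 0 of 9. They were at 27.76 on panel I and at 26.60, 34.59, 36.22, 36.38 and 37.003 on panel II. An assay with a bracketed name, miR-1974, was left out of the ranks, and it read at 15.34 in shNS and 17.61 in untreated, earlier than all miRNA wells of panel II, its plate, except 3 in shNS and 2 in untreated. The source of neither signal was tested.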

How the results depend on the processing

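No paired analysis was possible because the groups hold 1 sample each. Of the values of named miRNAs and pairs under the alternatives, 348 moved within the tolerance, 68 moved by more and 2 changed sign. The latter were the shifts of miR-554 (-0.276 points) and miR-888* (-0.552 points) in the authors' shifted Ct, which gives numbers for wells that were undetermined.

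Abundant wells on panels I and II numbered 11 and 11 at the first 5%, 55 and 52 at the first 20%, 17 and 11 in outer columns alone, which hold fewer wells, and 49 and 4 with both panels in one ranking. Shifts later and earlier on panel I numbered 58 and 60 at 15 points, 17 and 4 at 40 points, and 6 and 5 in outer columns, where the correlation was 0.912. On panel II they were 49 and 50, 8 and 3, and 10 and 6. With a limit of Ct 32, earlier shifts were 7 on panel I and 4 on panel II, and later shifts on panel II 36. Centred Ct differing by 2 cycles gave 35 earlier wells on panel I, and subtracting neighbouring wells 18 earlier on panel II.

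Wells not detected in untreated, in shNS and in both were 401, 67 and 67 at Ct 32, 98, 1 and 1 without a limit, 118, 17 and 14 in the shifted Ct, and 87, 3 and 3 in outer columns. At Ct 37 the last pair was 2 and 2. Counting wells later than water in shNS raised those missing in both to 179.

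Star arms first in shNS, untreated and both were 45, 51 and 31 by percentile rank, and 10, 5 and 3 for pairs on 1 panel, where guides came first in both in 20. Star arms first in untreated were 38 as read, 32 aligned on shared assays and 5 where both arms were detected. In both controls the star came first in 12, 12 and 1 under these settings, in 8 without a limit, 3 at Ct 32 and 8 in the shifted Ct. The cause of these changes was not tested beyond the settings' own construction. With 1 sample a group, depth limits are set by water wells and Ct 35.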
